A study of Homo sapiens with 14 samples.

Results

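The aryl hydrocarbon receptor (AHR) and its targets were followed in the breast cancer line LY2, which was derived from MCF-7 and grows in the presence of anti-estrogens. The members were 9 of the 19775 genes that have a probe set of their own, taken as every HG-U133 Plus 2.0 probe set whose annotation names 1 of them: AHR, its partner ARNT, the repressors AHRR and TIPARP, the oxidative enzymes CYP1A1, CYP1A2 and CYP1B1, and the further target enzymes NQO1 and ALDH3A1. They were represented by 21 probe sets of 54613 tested, and 0 of the 21 carried a second gene symbol. This rests on the annotation, and whether a probe set also reads other RNAs was not examined. ARNT had 7 probe sets, CYP1B1 had 4, NQO1 had 3, CYP1A2 had 2, and AHR, AHRR, CYP1A1, TIPARP and ALDH3A1 had 1 each.

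AHR is a receptor of the cytoplasm that is held by chaperones until it binds a ligand such as a dioxin, a polycyclic hydrocarbon or a kynurenine. It then enters the nucleus, pairs with ARNT and binds dioxin response elements, short DNA motifs near genes of xenobiotic metabolism, and its targets AHRR and TIPARP limit the response. In breast cells the induced enzymes CYP1A1 and CYP1B1 also convert estradiol to catechol estrogens. The coactivator SRC-1, the product of NCOA1, is known to act with AHR and ARNT as well as with the estrogen receptor, and 4-hydroxytamoxifen, the active form of tamoxifen, has been reported to bind AHR.

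RNA was measured on 14 arrays in 4 groups. There were 2 arrays of SRC1 siRNA with tamoxifen (replicates 1 and 3), and 4 each of control siRNA with tamoxifen, SRC1 siRNA untreated and control siRNA untreated (replicates 1 to 4). All cells came from 1 line maintained in 10 nM 4-hydroxytamoxifen, were deprived of it for 72 h, and carried 40 nM of the SRC-1 or of a scrambled siRNA. At 24 h after transfection they received 100 nM 4-hydroxytamoxifen ("tamoxifen") or its ethanol vehicle ("untreated") for 2 h. The labels call the replicates biological without saying whether they were separate cultures, so p-values measure the spread between these arrays. The number of arrays limits the precision.

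Values are log2 signals per probe set as deposited, and each change is the log2 mean of 1 group minus that of another, given ± its standard error from a limma fit over all probe sets. A change passed when its Benjamini-Hochberg adjusted p was under 0.05. Probe sets were called dim when their mean lay below the median of all probe-set means, 3.47. Differences there are compressed, and no level is compared between probe sets. Array medians lay between 3.44 and 3.51. Arrays of the same replicate number in different groups deviated from their group means in opposite senses, with correlations between -0.585 and -0.0421 over 18 pairs. The labels and processing notes state no adjustment for it. If number differences were removed before deposit, p-values without a term for the number are too small, and all calls below that lack one carry this limit. The adjusted p of a fit with the number as a term is therefore given beside each member call. For genes of other lists it is given where the term ended a call, and their other calls named here passed with it. All 8 luminal markers were above the median, with a list mean of 12.44 to 12.51 over all arrays. Above the median were also 1 of 5 fibroblast markers (COL1A1), 1 of 4 immune markers (LYZ), 1 of 4 hepatocyte markers (SERPINA1) and 0 of 4 endothelial markers.

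The knockdown checked against its label. NCOA1, as the mean of its 4 probe sets, stood at 8.01, 7.53, 7.27 and 7.98 in SRC1-siRNA untreated cells, against 8.81, 9.14, 9.27 and 8.77 in control-siRNA untreated cells. It stood at 7.91 and 7.56 in SRC1-siRNA tamoxifen cells, against 8.86, 8.98, 9.27 and 9.13 in control-siRNA tamoxifen cells. No array of either SRC1-siRNA group reached a control array. The linear signal was 59.4% lower in untreated cells (log2 difference -1.30, two-sided exact permutation p = 0.0286 over 70 regroupings). It was 60.0% lower in tamoxifen-treated cells (-1.32, exact permutation p = 0.0667 over 15 regroupings, the smallest p that these 2 and 4 arrays allow).

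Promoter sequence was taken from RefSeq on build GRCh38.p14, as the 250 bases before each start. It is printed for CYP1A1, for TIPARP, which passed in no comparison, and for CYP1A2, a dim member on the same chromosome as CYP1A1. Other windows are described below without their sequence. Capitals mark the core of the dioxin response element, GCGTG, or its complement CACGC where the core is on the opposite strand.
CYP1A1 (chr15:74725529-74725778, minus strand): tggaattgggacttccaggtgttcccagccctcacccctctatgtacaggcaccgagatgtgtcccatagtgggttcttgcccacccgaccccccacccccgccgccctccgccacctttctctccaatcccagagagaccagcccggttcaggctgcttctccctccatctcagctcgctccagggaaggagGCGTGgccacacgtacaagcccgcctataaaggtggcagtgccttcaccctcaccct
CYP1A2 (chr15:74748595-74748844, plus strand): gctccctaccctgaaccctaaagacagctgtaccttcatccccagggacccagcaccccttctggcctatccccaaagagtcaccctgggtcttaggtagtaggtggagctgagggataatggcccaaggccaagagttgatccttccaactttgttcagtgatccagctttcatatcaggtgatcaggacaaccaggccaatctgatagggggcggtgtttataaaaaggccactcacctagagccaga
TIPARP (chr3:156674340-156674589, plus strand): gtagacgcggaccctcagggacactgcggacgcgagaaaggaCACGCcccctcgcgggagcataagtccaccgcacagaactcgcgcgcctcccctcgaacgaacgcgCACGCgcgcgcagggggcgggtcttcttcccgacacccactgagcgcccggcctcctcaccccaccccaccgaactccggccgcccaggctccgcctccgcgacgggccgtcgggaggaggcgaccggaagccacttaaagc
The CYP1A1 window held 1 core on its own strand, whose first base was 57 bases before the start, and the CYP1A2 window held none. The first of 3 TIPARP windows held 2 on the opposite strand, with first bases 208 and 142 before the start. Windows were found for 7 of the 9 members, 10 windows in all, and CYP1B1 and ALDH3A1 were not among them. GCGTG on either strand was in 4 of the 10 windows, namely 1 of CYP1A1, 1 of TIPARP and 2 of AHRR, against 32.2% of all 35116 windows of the same length. The longer TNGCGTG, which contains the core, was in 1 of the 10 windows, a window of AHRR, against 4.52% of all. TGACNNNGC, the antioxidant response element through which NRF2 acts, was in 1, that of ARNT, against 10.9% of all. None of the 3 motifs was in the windows of AHR and NQO1. These are matches of letters in a short window, and more distant enhancers were not searched.

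In untreated cells, CYP1A1 and CYP1B1 were higher after SRC1 siRNA than after control siRNA, and the receptor, its partner and the other targets did not pass. CYP1A1 was 1.65-fold higher and CYP1B1 up to 1.54-fold higher. Among the 21 member probe sets 3 passed, all higher: CYP1A1 and 2 of the 4 of CYP1B1. Of all 54613 probe sets, 4.99% passed as higher and 10.4% passed in either direction. The median change of the 21 was 0.12, against -0.004 over all probe sets. At an unadjusted p under 0.05 there were 11 of the 21, against 25.4% of all. These included several probe sets each of CYP1B1 and ARNT, which share an RNA, and some dim ones, so they are not independent. With the number term 5 of the 21 had an unadjusted p under 0.05. The share over all probe sets was not counted there, so this 5 cannot be called high or low. With the replicate number added to the model 0 of the 21 passed, against 3.94% of all.

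CYP1A1, which oxidises polycyclic hydrocarbons and is a classic readout of AHR activity, had signals of 8.03, 7.71, 7.90 and 7.95 in SRC1-siRNA untreated cells, against 7.02, 7.44, 7.52 and 6.73 in control-siRNA untreated cells. Every SRC1-siRNA array lay above every control array, and the control arrays were the more spread, with replicates 1 and 4 lowest. The change was 0.72 ± 0.18 (limma adjusted p = 0.0221, and adjusted p = 0.0774 with the number term). The differences between arrays of the same number were 1.0, 0.27, 0.39 and 1.21.

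CYP1B1, which forms catechol estrogens in breast tissue, was read by 4 probe sets that share its RNA and are no independent measures. Probe set 202435_s_at had 10.87, 10.53, 10.76 and 10.33 in SRC1-siRNA untreated cells, against 9.79, 9.94, 10.25 and 10.01 in control-siRNA untreated cells. Probe set 202436_s_at had 11.61, 11.37, 11.49 and 11.22 in SRC1-siRNA untreated cells, against 10.71, 11.04, 11.19 and 10.79 in control-siRNA untreated cells. For both the groups did not overlap, and replicate 4 was the lowest SRC1-siRNA array. The changes were 0.63 ± 0.18 for 202435_s_at (limma adjusted p = 0.0409, 0.122 with the number term) and 0.49 ± 0.14 for 202436_s_at (limma adjusted p = 0.0407, 0.124 with the term).

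The brightest CYP1B1 probe set, 202437_s_at, had 12.49, 12.37, 12.63 and 12.41 in SRC1-siRNA untreated cells, against 12.03, 12.34, 12.26 and 12.19 in control-siRNA untreated cells. The groups did not overlap, but the gap between them was small, and the difference of 0.27 ± 0.09 did not pass (limma adjusted p = 0.086). The fourth probe set, 202434_s_at, was dim, with signals of 2.76 to 3.17 over the 14 arrays. CYP1B1-AS1, the antisense RNA of this locus, was dim too, and its difference of 0.04 ± 0.12 did not pass (limma adjusted p = 0.857).

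**Figure D1:**
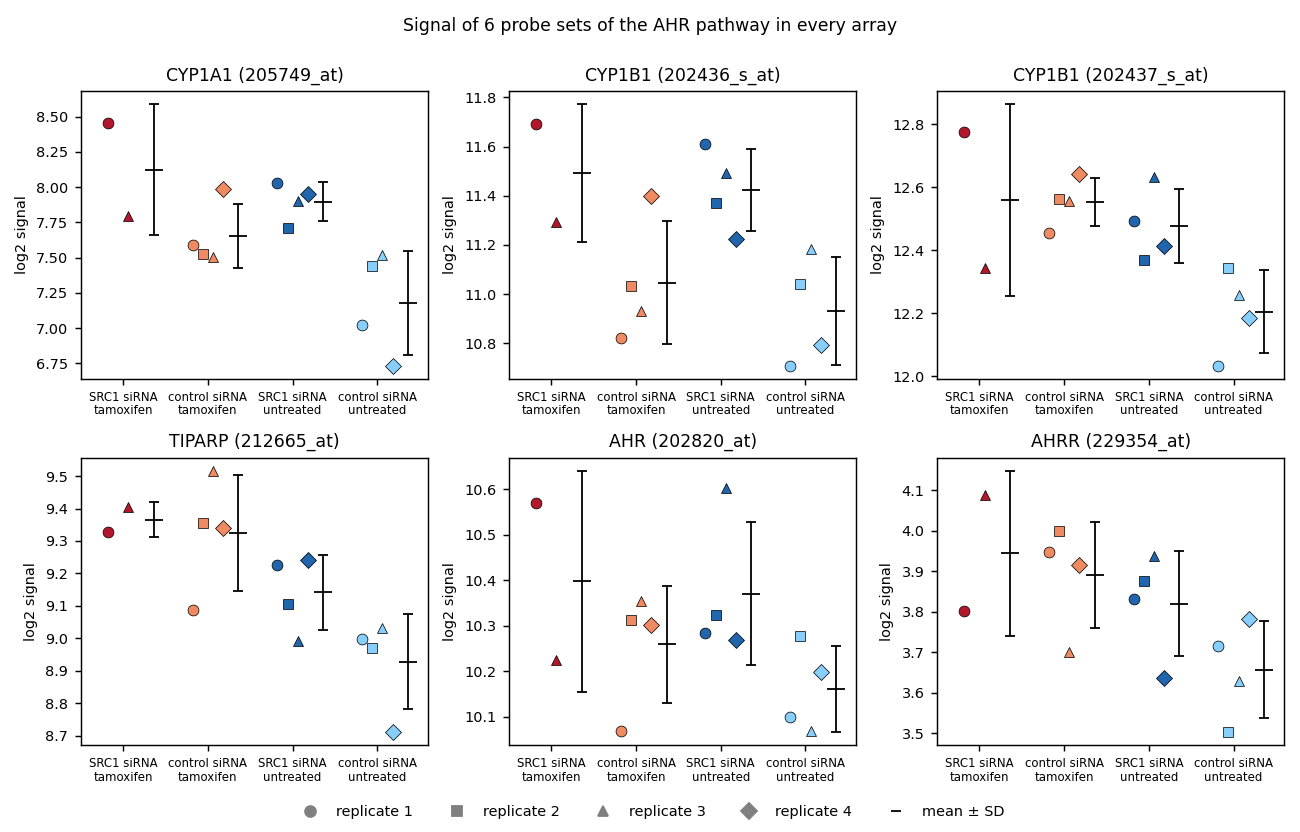
Log2 signal (vertical axis) of 6 member probe sets in each of the 14 arrays, by group. Symbols give the replicate number, and bars the mean ± SD of 2 or 4 arrays. The 4 SRC1-siRNA untreated arrays lie above the 4 control-siRNA untreated arrays for CYP1A1 and for both CYP1B1 probe sets, whereas these groups overlap for TIPARP, AHR and AHRR.

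Neither component of the receptor dimer passed in untreated cells. AHR itself had 10.28, 10.32, 10.60 and 10.27 in SRC1-siRNA untreated cells, against 10.10, 10.28, 10.07 and 10.20 in control-siRNA untreated cells. The groups overlapped, with SRC1-siRNA replicate 3 well above the rest. The difference was 0.21 ± 0.10 (limma adjusted p = 0.19). ARNT, the partner needed for DNA binding, had 10.65, 10.57, 10.64 and 10.54 in SRC1-siRNA untreated cells on its brightest probe set, 231016_s_at, against 10.64, 10.51, 10.44 and 10.61 in control-siRNA untreated cells. These groups overlapped almost entirely. On 218222_x_at it had 4.41, 4.43, 4.24 and 4.36 in SRC1-siRNA untreated cells, against 4.20, 4.11, 4.27 and 4.17 in control-siRNA untreated cells, overlapping through replicate 3. Over all 7 ARNT probe sets the differences ran from -0.05 to 0.19, and 0 of the 7 passed.

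The repressors did not pass either. AHRR, which competes with AHR for ARNT, had 3.83, 3.87, 3.94 and 3.64 in SRC1-siRNA untreated cells, against 3.71, 3.50, 3.63 and 3.78 in control-siRNA untreated cells, a difference of 0.16 ± 0.09 (limma adjusted p = 0.29). TIPARP, a mono-ADP-ribosyltransferase that modifies AHR, had 9.23, 9.11, 8.99 and 9.24 in SRC1-siRNA untreated cells, against 9.00, 8.97, 9.03 and 8.71 in control-siRNA untreated cells. The difference was 0.21 ± 0.09 (limma adjusted p = 0.173). In both genes the groups overlapped, through replicate 4 for AHRR and replicate 3 for TIPARP.

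Of the remaining targets, NQO1, a quinone reductase that both AHR and NRF2 induce, was bright on all 3 probe sets. Its differences in untreated cells were 0.07, -0.08 and 0.02, and 0 of the 3 passed. On its brightest probe set, 201468_s_at, it had 13.28, 13.25, 13.31 and 13.29 in SRC1-siRNA untreated cells, against 13.36, 13.37, 13.29 and 13.44 in control-siRNA untreated cells, and the groups overlapped. CYP1A2, the mainly hepatic relative of CYP1A1, was dim on both probe sets. The brighter, 207608_x_at, had 3.04, 3.05, 3.36 and 3.32 in SRC1-siRNA untreated cells, against 3.10, 3.50, 3.18 and 3.13 in control-siRNA untreated cells, and the other stayed at 2.00 to 2.18 over all arrays. ALDH3A1, an aldehyde dehydrogenase of epithelia, was dim too, with 2.53, 2.65, 2.56 and 2.54 in SRC1-siRNA untreated cells, against 2.41, 2.36, 2.43 and 2.56 in control-siRNA untreated cells, and its groups overlapped through control replicate 4. Among all 21 probe sets, 5 had every SRC1-siRNA untreated array above every control-siRNA untreated array, and 0 had every one below. The 5 were CYP1A1, 3 of CYP1B1 and 207609_s_at of CYP1A2, a dim one whose difference was 0.10. Over all probe sets 7.92% were separated upwards and 8.31% downwards.

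The calls in untreated cells depended on which arrays were included. Leaving out SRC1-siRNA untreated replicate 1, control-siRNA untreated replicate 1 or control-siRNA untreated replicate 4 left 0 of the 21 probe sets passing. Leaving out control-siRNA tamoxifen replicate 2, SRC1-siRNA untreated replicate 2 or control-siRNA untreated replicate 2 left 1, CYP1A1. Leaving out SRC1-siRNA untreated replicate 3 ended both CYP1B1 calls (limma adjusted p = 0.0959 and 0.0904), with CYP1A1 and ARNT 218222_x_at passing. Leaving out control-siRNA tamoxifen replicate 3 ended the call of 202435_s_at, and leaving out all arrays of number 4 ended that of CYP1A1. Over all probe sets 4447 passed without number 4, against 5653 in the main fit. For single arrays left out, here and below, the share over all probe sets is not given. Such counts therefore do not show whether members lost more calls than other probe sets. Over 21 alternatives, the change of CYP1A1 stayed between 0.55 and 0.83 and passed in 16. That of CYP1B1 202435_s_at stayed between 0.54 and 0.73 and passed in 12, and that of 202436_s_at stayed between 0.42 and 0.58 and passed in 13.

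In tamoxifen-treated cells, where the SRC1-siRNA group held only 2 arrays, CYP1A1 and CYP1B1 did not pass, and 2 other probe sets did: 1 of the 7 of ARNT and 1 of the 3 of NQO1, both higher. Over all probe sets 5.76% passed as higher and 13.5% in either direction. The median change of the 21 was 0.04, against -0.024 over all. At an unadjusted p under 0.05 there were 4 of the 21, against 29.2% of all. With the number term 0 of the 21 passed, against 2.24% of all.

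CYP1A1 had 8.45 and 7.80 in SRC1-siRNA tamoxifen cells, against 7.59, 7.53, 7.51 and 7.99 in control-siRNA tamoxifen cells. The groups overlapped, since control replicate 4 exceeded SRC1-siRNA replicate 3, and the difference of 0.47 ± 0.22 did not pass (limma adjusted p = 0.174). CYP1B1 on 202436_s_at had 11.69 and 11.29 in SRC1-siRNA tamoxifen cells, against 10.82, 11.03, 10.93 and 11.40 in control-siRNA tamoxifen cells. Its difference of 0.45 ± 0.17 did not pass (limma adjusted p = 0.104), and those of 202435_s_at and 202437_s_at were 0.37 ± 0.22 and 0.00 ± 0.12. The brightest, 202437_s_at, had 12.77 and 12.34 in SRC1-siRNA tamoxifen cells, against 12.46, 12.56, 12.56 and 12.64 in control-siRNA tamoxifen cells, with 1 SRC1-siRNA array above and 1 below all controls. Their signals were 11.03 and 10.36 for 202435_s_at in SRC1-siRNA tamoxifen cells, against 9.90, 10.47, 10.27 and 10.65 in control-siRNA tamoxifen cells, with overlap. For AHR, at 10.57 and 10.22 in SRC1-siRNA tamoxifen cells, against 10.07, 10.31, 10.36 and 10.30 in control-siRNA tamoxifen cells, the difference was 0.14 ± 0.12 (limma adjusted p = 0.47).

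The ARNT probe set that passed, 218222_x_at, had 4.40 and 4.60 in SRC1-siRNA tamoxifen cells, against 4.21, 4.14, 4.20 and 4.24 in control-siRNA tamoxifen cells. Both SRC1-siRNA arrays were above the controls, by little, at a signal not far above the median of the table. The change was 0.30 ± 0.07 (limma adjusted p = 0.0173, 0.125 with the number term), whereas the brightest ARNT probe set, at 10.58 and 10.54 in SRC1-siRNA tamoxifen cells, against 10.35, 10.54, 10.55 and 10.51 in control-siRNA tamoxifen cells, differed by 0.07 ± 0.07 (limma adjusted p = 0.553). NQO1 on 210519_s_at had 13.04 and 13.13 in SRC1-siRNA tamoxifen cells, against 12.78, 12.72, 12.81 and 12.90 in control-siRNA tamoxifen cells. The change was 0.28 ± 0.07 (limma adjusted p = 0.0185, 0.126 with the term), and the other NQO1 probe sets differed by 0.05 and -0.04. In untreated cells 210519_s_at had 13.02, 13.04, 12.85 and 12.94 after SRC1 siRNA, against 12.95, 12.95, 12.98 and 12.88 after control siRNA, with overlap. The probe sets of each gene thus disagreed. ALDH3A1 had 2.30 and 2.41 in SRC1-siRNA tamoxifen cells, against 2.64, 2.57, 2.46 and 2.46 in control-siRNA tamoxifen cells, a difference of -0.18 ± 0.07 at a dim signal that did not pass (limma adjusted p = 0.129). AHRR had 3.80 and 4.09 in SRC1-siRNA tamoxifen cells, against 3.95, 4.00, 3.70 and 3.92 in control-siRNA tamoxifen cells. NQO1 on 201468_s_at had 13.38 and 13.25 in SRC1-siRNA tamoxifen cells, against 13.34, 13.37, 13.42 and 13.30 in control-siRNA tamoxifen cells. CYP1A2 on 207608_x_at had 3.50 and 3.04 in SRC1-siRNA tamoxifen cells, against 3.44, 3.27, 3.40 and 3.29 in control-siRNA tamoxifen cells. All 3 overlapped. Without SRC1-siRNA tamoxifen replicate 3, 0 of the 21 probe sets passed, and without replicate 1 of that group 1 did, that of ARNT.

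**Figure D2:**
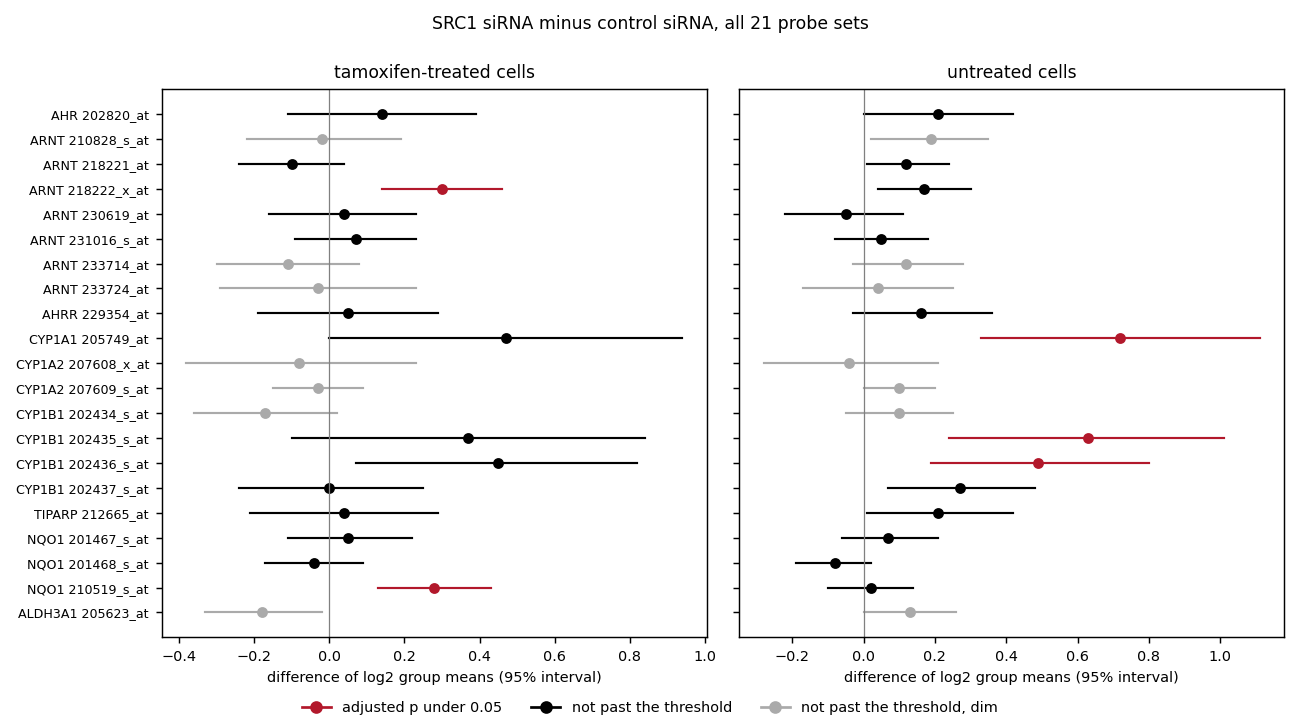
Difference of log2 group means, SRC1 siRNA minus control siRNA (horizontal axis), for all 21 member probe sets in tamoxifen-treated (left) and untreated cells (right), with 95% intervals from the limma fit. In untreated cells CYP1A1 at 0.72 and CYP1B1 at 0.63 and 0.49 passed, and in tamoxifen-treated cells single probe sets of ARNT at 0.30 and NQO1 at 0.28 passed. Dim probe sets are grey.

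The knockdown change was not shown to differ between treatments. The interaction contrast passed for 0 of the 21 probe sets in limma, against 0.280% of all, with 4 of the 21 at an unadjusted p under 0.05 and 17.3% of all. For CYP1A1 the change with tamoxifen minus the change without it was -0.25 ± 0.28, with a 95% interval of -0.86 to 0.36, so differences of that size were within the error. For CYP1B1 202436_s_at it was -0.05 ± 0.22, with an interval of -0.53 to 0.43.

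Over both treatments, in an additive fit, 4 of the 21 probe sets passed, all higher after SRC1 siRNA, against 7.58% of all as higher and 17.0% in either direction. At an unadjusted p under 0.05 there were 6, against 29.8% of all. CYP1A1 was higher by 0.62 ± 0.14 (limma adjusted p = 0.00626, 0.0283 with the number term), a 1.54-fold change. CYP1B1 was higher by 0.47 ± 0.11 on 202436_s_at (limma adjusted p = 0.00634, 0.0291 with the term). On 202435_s_at it was higher by 0.52 ± 0.14 (limma adjusted p = 0.0167, 0.054 with the term). The brightest CYP1B1 probe set, 202437_s_at, differed by 0.17 ± 0.08 and did not pass (limma adjusted p = 0.177). The dim 202434_s_at differed by -0.01 ± 0.06, so the CYP1B1 probe sets did not all move alike. ARNT 218222_x_at was higher by 0.22 ± 0.05 (limma adjusted p = 0.00546, 0.0385 with the term), at a mean signal of 4.29. No other ARNT probe set passed, and the brightest, 231016_s_at, differed by 0.06 ± 0.05 (limma adjusted p = 0.434). With the term, 3 of the 21 passed, all among the 4 that passed without it, against 9.21% of all. The calls of CYP1A1, 202436_s_at and 218222_x_at held in all 20 alternatives tried, each with its own adjusted p of at most 0.0283, 0.0291 and 0.0385.

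Tamoxifen given for 2 h changed no member past the threshold. In control-siRNA cells 0 of the 21 probe sets passed in limma, against 0.163% of all, with 6 of the 21 at an unadjusted p under 0.05 and 15.7% of all. In SRC1-siRNA cells 0 of the 21 passed, against 1.51% of all, with 2 of the 21 at an unadjusted p under 0.05 and 16.8% of all. Over both siRNAs 0 passed, against 0.300% of all, with 5 unadjusted and 13.9% of all. In control-siRNA cells the median change of the 21 was 0.09, against 0.006 over all.

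TIPARP came closest to the threshold, with 9.09, 9.35, 9.52 and 9.34 in control-siRNA tamoxifen cells, against 9.00, 8.97, 9.03 and 8.71 in control-siRNA untreated cells. No treated array overlapped an untreated one, and the differences between arrays of the same number were 0.09, 0.38, 0.49 and 0.63. The difference was 0.40 ± 0.09, with a 95% interval of 0.19 to 0.60 (limma adjusted p = 0.0877, 0.406 with the number term). TIPARP in SRC1-siRNA cells had 9.33 and 9.40 with tamoxifen, against 9.23, 9.11, 8.99 and 9.24 untreated. Both treated arrays were the higher, and the difference was 0.22 ± 0.12 (limma adjusted p = 0.35). Over both siRNAs it was 0.33 ± 0.07 (limma adjusted p = 0.0783). In SRC1-siRNA cells, 2 of the 21 probe sets had both tamoxifen arrays above all untreated arrays, and 5 had both below. The share over all probe sets was not counted there, so these counts cannot be called high or low. They and the separation of TIPARP are only a description.

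CYP1B1 on its brightest probe set had 12.46, 12.56, 12.56 and 12.64 in control-siRNA tamoxifen cells, against 12.03, 12.34, 12.26 and 12.19 in control-siRNA untreated cells. The groups did not overlap, and the difference of 0.35 ± 0.09 did not pass (limma adjusted p = 0.118). Its other bright probe sets differed by 0.33 and 0.12. CYP1A1 differed by 0.48 ± 0.18 (limma adjusted p = 0.223), with arrays of numbers 2 and 3 nearly equal, at 0.09 and -0.01, and numbers 1 and 4 apart, at 0.57 and 1.26. AHRR had 3.95, 4.00, 3.70 and 3.92 in control-siRNA tamoxifen cells, against 3.71, 3.50, 3.63 and 3.78 in control-siRNA untreated cells. It differed by 0.23 ± 0.09 (limma adjusted p = 0.238) and was higher in 4 of 4 same-number pairs, and the groups overlapped. AHR differed by 0.10 ± 0.10 (limma adjusted p = 0.66).

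Of the 21 probe sets, 2 (TIPARP and 202437_s_at of CYP1B1) had every control-siRNA tamoxifen array above every control-siRNA untreated array, against 4.95% of all probe sets. ARNT 230619_at had every treated array below, at 9.29, 9.13, 9.07 and 9.35 with tamoxifen, against 9.42, 9.42, 9.43 and 9.44 untreated, which 3.91% of all probe sets did. Its difference of -0.22 ± 0.08 did not pass (limma adjusted p = 0.193). The comparisons of knockdown and of tamoxifen share the control-siRNA untreated arrays, whose levels enter both. For CYP1A1 the group means were 8.12 ± 0.46 in SRC1-siRNA tamoxifen cells (SD, n = 2), 7.65 ± 0.23 in control-siRNA tamoxifen cells, 7.90 ± 0.14 in SRC1-siRNA untreated cells and 7.18 ± 0.37 in control-siRNA untreated cells (SD, n = 4 each). In this order of levels, SRC1-siRNA tamoxifen and SRC1-siRNA untreated cells did not differ beyond the error (0.23 ± 0.22, limma adjusted p = 0.655).

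**Figure D3:**
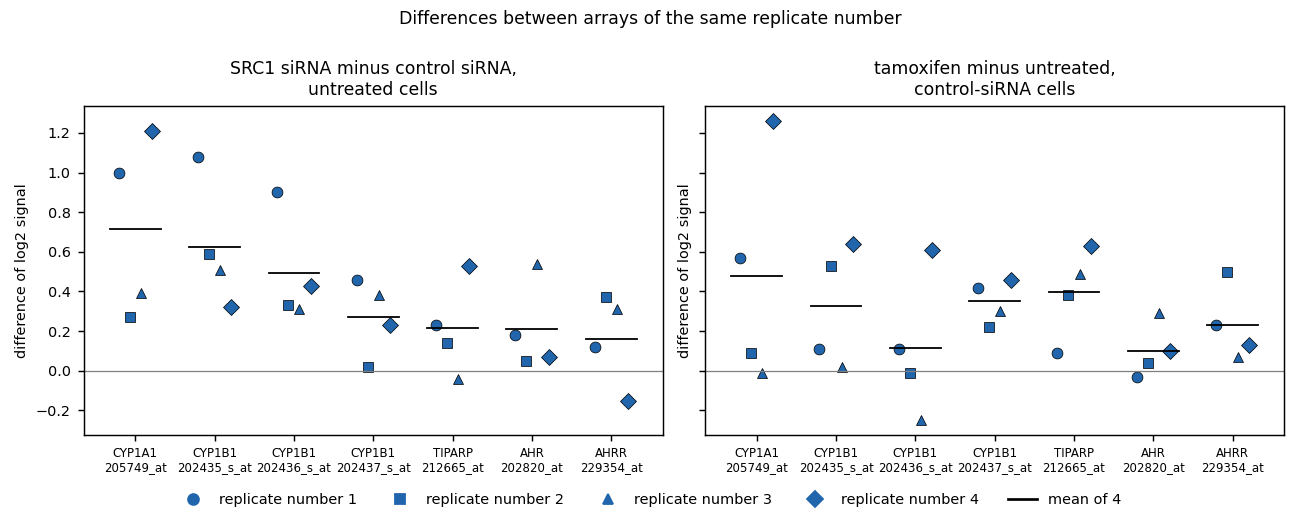
Difference of log2 signal (vertical axis) between arrays of the same replicate number for 7 probe sets, SRC1 siRNA minus control siRNA in untreated cells (left) and tamoxifen minus untreated in control-siRNA cells (right). Symbols give the number, and lines the mean of 4. For CYP1A1 numbers 1 and 4 show the larger differences in both panels, which share the control-siRNA untreated arrays.

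**Figure D4:**
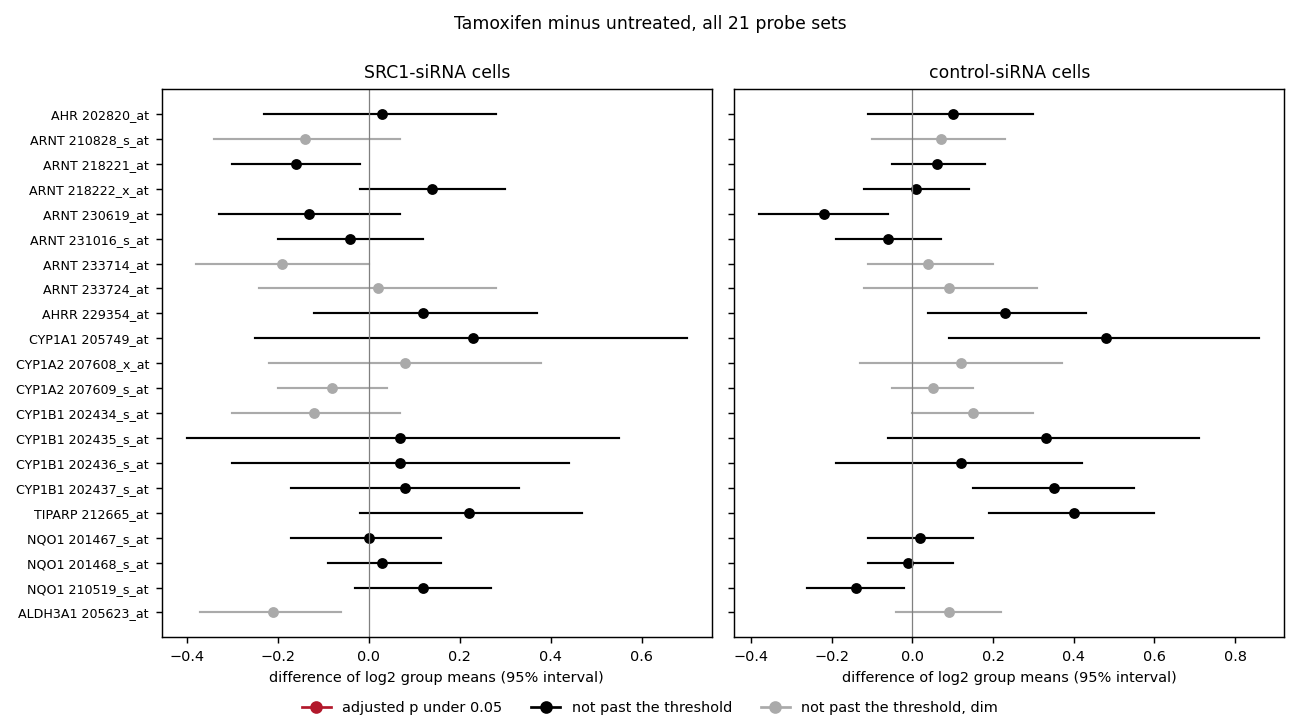
Difference of log2 group means, tamoxifen minus untreated (horizontal axis), for all 21 member probe sets in SRC1-siRNA (left) and control-siRNA cells (right), with 95% intervals from the limma fit. No probe set passed, and dim probe sets are grey. In control-siRNA cells the intervals of TIPARP (0.19 to 0.60) and CYP1B1 202437_s_at (0.15 to 0.55) lie above 0.

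Further genes of the pathway were counted by list, each gene by its brightest probe set. Their counts stand against 4.99% of all probe sets passing as higher and 10.4% in either direction in untreated cells, and 5.76% and 13.5% in tamoxifen-treated cells. Of the enzymes of the kynurenine pathway, which makes AHR ligands from tryptophan, 3 of 9 rose after SRC1 siRNA in untreated cells and 0 fell, with a list median of 0.08 against -0.004 over all probe sets. IDO1, which opens the pathway, was 4.16-fold higher (2.06 ± 0.37, limma adjusted p = 0.0042), KMO, which hydroxylates kynurenine, 1.59-fold higher (0.67 ± 0.14, limma adjusted p = 0.0106), and KYNU, which cleaves it, 1.29-fold higher (0.37 ± 0.11, limma adjusted p = 0.0487). These 3 passed with the number term too. In tamoxifen-treated cells 3 of 9 rose, namely IDO1 at 1.90 ± 0.46, KMO at 0.69 ± 0.18 and AFMID, a formamidase, at 0.34 ± 0.09, and none of them passed with the term (limma adjusted p = 0.0969, 0.0902 and 0.139). TDO2, the alternative first enzyme, did not pass in either comparison.

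IDO1 ranged from 3.82 to 5.87 in SRC1-siRNA untreated cells, against 1.93 to 2.95 in control-siRNA untreated cells. Interferon genes moved in the same comparison. IFNB1, the interferon beta gene, was higher by 3.98 ± 0.67 (limma adjusted p = 0.00285) and 3 of 4 interferon genes rose (IFNB1, MX1 and ISG15), with a list median of 1.49 against -0.004 over all. The fourth, IFIT1, differed by 1.61 ± 0.74 and did not pass (limma adjusted p = 0.194). By same number IFIT1 differed by 0.50, 0.13, 0.04 and 5.77, so its difference came mainly from number 4. With the number term 2 of the 4 passed, and ISG15 did not (limma adjusted p = 0.0708). Their part in the changes of IDO1, CYP1A1 and CYP1B1 was not tested. By same number, IFNB1 differed by 6.45, 2.67, 1.76 and 5.04, IDO1 by 3.94, 1.71, 1.62 and 0.96, and NCOA1 by -0.80, -1.60, -2.00 and -0.79. Number 4 was thus among the larger differences for IFNB1 and CYP1A1 and the smallest for IDO1 and CYP1B1 202435_s_at, and NCOA1 was lowered least in numbers 1 and 4. Among markers of other cell types, PECAM1 of endothelium, a dim probe set, was higher by 0.73 ± 0.19 (limma adjusted p = 0.0255, 0.0862 with the number term). The other 3 differed by -0.20 (VWF), -0.02 (CDH5) and 0.07 (KDR) and did not pass. The mean of the 4 endothelial markers was 2.71 to 2.92 in SRC1-siRNA untreated cells, against 2.60 to 2.68 in control-siRNA untreated cells. In tamoxifen-treated cells it was 2.43 to 2.55 after SRC1 siRNA, against 2.56 to 2.67 after control siRNA, and CDH5 was lower, at -0.36 ± 0.06 (limma adjusted p = 0.00273). Averaged over all arrays, all 4 lay below the median of the table, and their part was not tested. Over both treatments LYZ of the immune list was higher by 0.43 ± 0.10 (limma adjusted p = 0.00681) and COL1A1 of the fibroblast list by 0.19 ± 0.06 (limma adjusted p = 0.0298, 0.0997 with the term). Over both treatments, of the luminal markers KRT8 was higher by 0.31 ± 0.07 and CDH1 lower, at -0.22 ± 0.05, and the other 6 did not pass.

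NRF2 targets, set beside NQO1, rose in 3 of 9 and fell in 0 in untreated cells, with a list median of 0.20 against -0.004 over all probe sets. HMOX1, which degrades heme, was 1.89-fold higher (0.92 ± 0.15, limma adjusted p = 0.00272). AKR1B10, an aldo-keto reductase, was 1.98-fold higher (0.99 ± 0.20, limma adjusted p = 0.00818). SLC7A11, a cystine transporter, was 1.59-fold higher (0.67 ± 0.17, limma adjusted p = 0.0234, 0.0741 with the term). In tamoxifen-treated cells HMOX1 (1.02 ± 0.19) and AKR1B10 (1.32 ± 0.25) rose, 2 of 9.

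Among 14 further AHR-responsive genes, 1 rose and 1 fell in untreated cells, a share near the 10.4% of all probe sets, with a list median of 0.10. NEDD9, a scaffold protein of cell adhesion, rose by 0.51 ± 0.15 (limma adjusted p = 0.0469), and ALDH1A3, a retinaldehyde dehydrogenase, fell by 0.54 on the log2 scale (SE 0.15, limma adjusted p = 0.0356). Neither passed with the number term (limma adjusted p = 0.124 and 0.0962). In tamoxifen-treated cells ALDH1A3 alone passed, at -0.66 ± 0.18 (limma adjusted p = 0.0332, 0.129 with the term). Over both treatments STC2, a secreted glycoprotein, fell by 0.35 as well (SE 0.10, limma adjusted p = 0.0324, 0.0986 with the term). Among 11 chaperones and bHLH-PAS relatives, EPAS1, the hypoxia factor HIF-2 alpha that also pairs with ARNT, rose by 1.02 ± 0.20 (limma adjusted p = 0.00639) in untreated and by 1.67 ± 0.24 (limma adjusted p = 0.00166) in tamoxifen-treated cells. CLOCK, a circadian transcription factor, fell by 0.46 in untreated (limma adjusted p = 0.00546) and by 0.51 in tamoxifen-treated cells (limma adjusted p = 0.00916, 0.0757 with the term). NPAS2, its relative, at 0.41 ± 0.09, and PTGES3, the p23 cochaperone, at -0.18 ± 0.05, passed in tamoxifen-treated cells and did not with the term (limma adjusted p = 0.0729 and 0.233).

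Among 8 coactivators and partners, RELB, an NF-kappaB subunit known to pair with AHR, rose by 0.33 ± 0.08 in untreated cells (limma adjusted p = 0.0186, 0.0583 with the number term). NRIP1, an estrogen-induced corepressor, passed in the tamoxifen comparison. In SRC1-siRNA cells it was 1.64-fold higher with tamoxifen (0.71 ± 0.14, limma adjusted p = 0.0297, 0.234 with the term), and in control-siRNA cells it differed by 0.44 ± 0.12 (limma adjusted p = 0.111). ESR1, the estrogen receptor, had group means of 12.59 ± 0.04 in SRC1-siRNA tamoxifen cells (SD, n = 2), 12.62 ± 0.07 in control-siRNA tamoxifen cells, 12.63 ± 0.04 in SRC1-siRNA untreated cells and 12.73 ± 0.05 in control-siRNA untreated cells (SD, n = 4 each). It passed in none of the 7 comparisons. No list gene other than NRIP1 in these 5 lists passed in a tamoxifen comparison. For the knockdown over both treatments, 3 of 9 kynurenine enzymes and 3 of 9 NRF2 targets passed as higher. So did 1 of 14 further responsive genes, 2 of 11 chaperones and relatives and 1 of 8 coactivators. As lower, 2 responsive genes and 1 relative passed. With the number term the counts were the same, except for 1 lower responsive gene. Of all probe sets 17.0% passed, and 9.21% with the term.

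**Figure D5:**
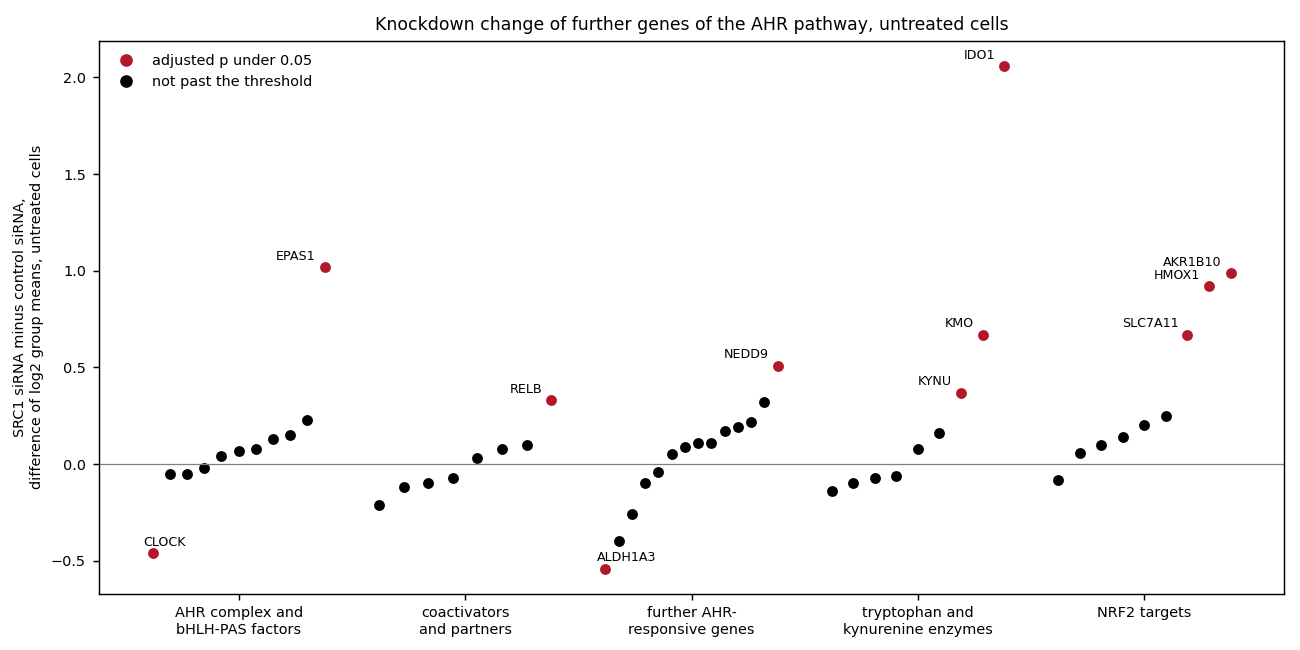
Difference of log2 group means, SRC1 siRNA minus control siRNA in untreated cells (vertical axis), for the measured genes of 5 lists of the AHR pathway, 1 point a gene in order of its change. Genes that passed are red and named, from IDO1 at 2.06 to ALDH1A3 at -0.54, and most genes lie near 0.

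Likeness of pattern was measured as Pearson correlation of signals over the 14 arrays among 23004 non-member probe sets above the median, and is given as a description. The points share the group differences and the array processing. CYP1A1 was most like KIAA1217 at 0.949, followed by FAM13A, ATG13 and OGFR at 0.927 each. The brightest CYP1B1 probe set was most like ATXN3 at 0.958, then VCPKMT at 0.933, DNM3 at 0.931 and another probe set of KIAA1217 at 0.930. AHR was most like LNX2 at 0.929, ZBTB43 at 0.922, GID4 at 0.913 and SMIM14 at 0.898. KIAA1217 was among the nearest for both enzymes.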

How the data were processed

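Microarray signals of LY2 cells were analysed in 14 arrays of 4 groups, assigned from the labels by siRNA and treatment. Per the labels' protocols, DNase-treated RNA was amplified (NuGEN Ovation) and biotin-labelled. The deposited values are log2 signals, 1 per probe set and array, with the base inferred from their range. How background was corrected and signals were normalized and summarised is not given in the sources used here. R 2.9.2 is the one tool in the submitters' processing notes.

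Values were used as deposited, without 62 array control probe sets, leaving 54613 of 54675. Means of the 4 groups were fitted over all arrays with limma 3.58.1 (lmFit and eBayes, statmod 1.5.0, R 4.3.3), two-sided, with Benjamini-Hochberg adjustment over the 54613 and a threshold of 0.05. An additive model gave changes over both treatments or both siRNAs. NCOA1 was compared by an exact permutation test of the mean of its probe sets. The code was tested on simulated data. Figures were drawn with matplotlib 3.10.9.

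Members, lists and tests were chosen with earlier results of these data known. All member probe sets are reported, with array values mainly for those that passed or were the brightest of a gene, and ranges or differences for the others. Of each list, genes that passed are named. Some genes of the lists were not analysed here, and counts are over those measured. Alternatives were quantile normalization, median centring, omission of dim probe sets, a model with the replicate number, a fit restricted to the groups compared, trended and robust eBayes, and omission of each array or of all arrays of number 4. A group left with 1 array took its spread from the others.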

Additional observations from a re-analysis of the deposited data

Results flagged for a closer look

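Of 63 sets of 4 arrays checked, from 21 probe sets in 3 groups, 2 held an array far from the other 3, and about 1 in 20 does so by chance. AHR (202820_at) in SRC1-siRNA untreated replicate 3 was 10.60, where the other 3 arrays of the group lay between 10.27 and 10.32. NQO1 (201467_s_at) in control-siRNA untreated replicate 3 was 12.29, where the others lay at 12.18 to 12.19.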

How the results depend on the processing

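The 2 SRC1-siRNA tamoxifen arrays and the dim probe sets limit the comparisons, and the differences between arrays of a group limit small changes. Replicate numbers were not treated as pairing in the main results: the 18 pairs of same-number arrays correlated at a median of -0.334. These correlations do not show that pairing is absent, since removal of number differences before deposit would leave such values too. With the number as a replicate block, the count of members passing fell to 0 for the knockdown in untreated cells (3 without it) and to 0 in tamoxifen-treated cells (2 without it), and was 3 over both treatments (4 without it). The NCOA1 difference under the block was -1.30 with exact permutation p = 0.125, the smallest p that 4 pairs allow, and without the arrays of number 4 it was -1.47 with p = 0.1, the smallest possible there. In tamoxifen-treated cells a fit of only the arrays compared gave 0 members and eBayes with trend and robust gave 1. The cause of these changes was not tested. Leaving out each array gave 0 to 4 members for the knockdown in untreated cells, 0 to 3 in tamoxifen-treated cells, 3 to 6 over both treatments, and an NCOA1 difference of -1.40 to -1.16. The tamoxifen and interaction counts were 0 in every alternative run, and no called change turned its direction. Over all probe sets, the block moved the count passing from 5653 to 2154 for the knockdown in untreated cells, from 7350 to 1224 in tamoxifen-treated cells, and from 9296 to 5031 over both. A fit of only the arrays compared gave 4025 in tamoxifen-treated cells. For tamoxifen in control-siRNA cells the count of 89 became 35 with median centring, 1 with the block, 2 with only the arrays compared and 24 without number 4. In SRC1-siRNA cells 824 became 0 with the block, 109 with only the arrays compared, 159 without number 4 and 246 without dim probe sets. Over both siRNAs 164 became 4 with the block and 72 without number 4, and for the interaction 153 became 0 with the block, 0 without number 4 and 23 without dim probe sets.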
